A study of Mus musculus with 3 samples.

Results

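Integrins, laminins and other basement membrane genes were described in adult mouse kidney cells sorted on the activity of a renin transgene. Members were chosen by name: probe sets with a single gene symbol on the platform that begins with Itga, Itgb, Lama, Lamb plus a digit, Lamc or Nid plus a digit, or that is Hspg2, Agrn, Dag1, Npnt or Fn1. This gave 49 of the 35557 probe sets on the array and 48 of 19938 named genes. Itgad had 2 probe sets and each of the other genes had 1, so for those 47 genes no second probe set could check the first. The members comprised 27 integrin chains, 4 genes whose symbol begins with Itgb but which encode no receptor chain, 10 laminin chains, and 7 further matrix or matrix receptor genes.

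The series holds 1 group of 3 single-colour Affymetrix arrays, replicates 2, 4 and 5, each from YFP-positive cells of adult male Ren1c-YFP transgenic mice of unspecified strain. Every animal was kept for 2 weeks on low-salt chow and on drinking water with 0.5 mg/ml captopril, a drug that blocks angiotensin-converting enzyme. The cells were freed from minced cortex with collagenase and sorted on the fluorescence of the transgene, which marks cells with an active renin gene, and the samples were not pooled. There were no untreated, YFP-negative or unsorted samples among those analysed here. The values are therefore levels, with no measure of what the treatment or the sort did, and a p-value here takes in the spread among these samples alone, which may be technical.

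Integrins are cell surface receptors made of an alpha and a beta chain that bind matrix proteins outside the cell and the actin cytoskeleton inside it. Basement membranes are sheets built on a network of laminin trimers and a network of type IV collagen, joined by nidogen and perlecan. In the kidney they lie under every tubule, around each glomerular capillary and around each smooth muscle cell of the arteriole, where renin cells sit.

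Values are log2 signals, one per probe set and array. An array's background level was the 95th percentile of its signals over 1027 olfactory receptor genes, chosen as genes of the nose, and was 6.20, 6.32 and 6.50 in replicates 2, 4 and 5. A gene passed when limma's one-sided test of its signal against this level gave a Benjamini-Hochberg adjusted p under 0.05 over all genes. Probe affinity also sets a signal, so the height of a gene above the level does not rank it against another gene. The labelled cell type could not be checked on renin itself, which was not analysed here. The list used joins renin cell and mural markers, so it cannot tell renin cells from other mural cells. All 16 renin cell and mural markers passed, among them Acta2, Myl9, Rgs5 and Myh11. But so did all 10 proximal tubule, all 8 loop and distal tubule and all 8 collecting duct markers, and 8 of 14 endothelial markers (57.1%, against 37.3% of all genes). Their part in the results below was not tested. In such mixed samples fewer cells of a type and less RNA per cell cannot be told apart.

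Of the 48 genes, 23 passed (47.9%), against 37.3% of all 19938 genes. The median height above the level was 0.35 log2 units over the 48 genes, and it was -0.01 over all genes. The genes that passed were 8 of 18 integrin alpha chains, 4 of 9 integrin beta chains, 4 of 10 laminin chains, Nid1, Hspg2, Agrn, Dag1, Npnt, Fn1 and Itgb1bp1. The set held receptors for laminin, collagen and the RGD tripeptide of matrix ligands, and a full set of chains for the laminins built on the alpha5 chain. None of the 8 genes listed as leukocyte chains (Itgad, Itgae, Itgal, Itgam, Itgax, Itgb2, Itgb2l and Itgb7) was among them, and Itga4, which leukocytes also use, was.

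**Figure D1:**
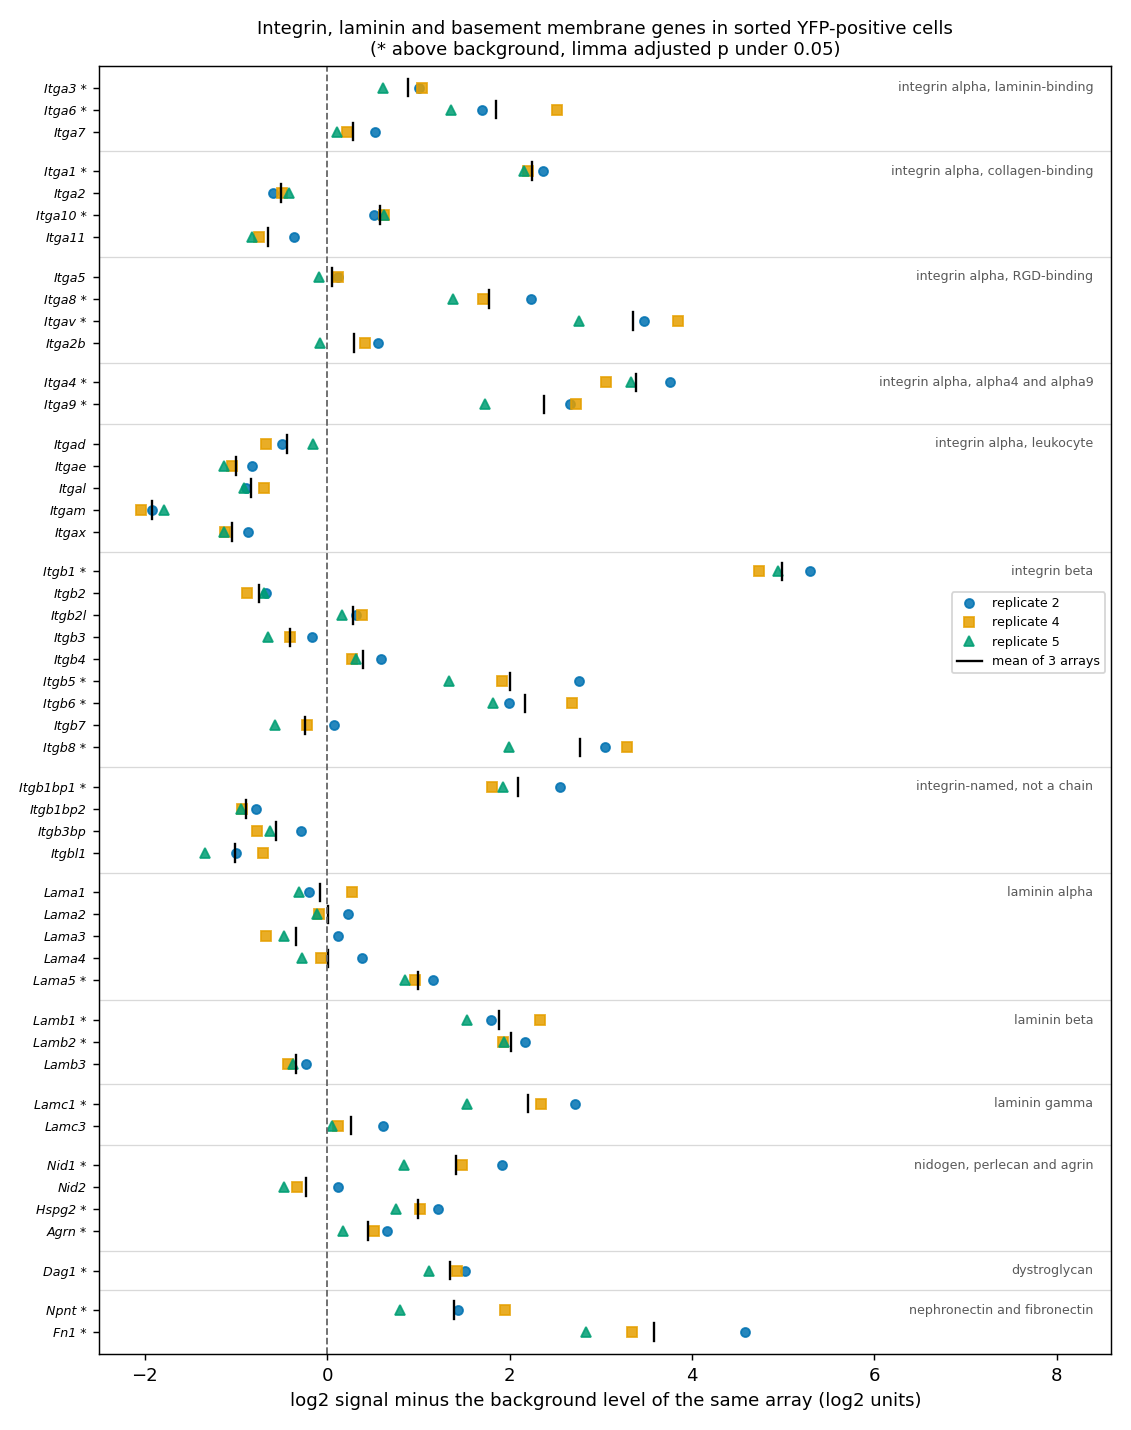
Height of the log2 signal above the background level of the same array (x axis, log2 units) for the 48 genes, grouped by role; symbols are the 3 replicates, the black bar is their mean and the dashed line is the background level. Itgb1 lies between 4.74 and 5.30 in the 3 arrays, and the 5 leukocyte alpha chains lie to the left of the line in all 3.

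Among the beta chains, Itgb1, the shared partner of most matrix-binding alpha chains, had log2 signals of 11.50, 11.06 and 11.45 in replicates 2, 4 and 5. All 3 arrays were thus far above the level, by 4.99 ± 0.21 on average (SE of the fit, limma adjusted p = 5.81e-07). The other beta chains that passed were the partners of Itgav. Itgb5, a vitronectin receptor chain, had signals of 8.97, 8.24 and 7.84, a mean of 2.01 ± 0.30 above the level (SE, adjusted p = 0.000524). Itgb6, a chain of epithelial cells whose dimer activates latent TGF-beta, had 8.20, 8.9983 and 8.32, or 2.16 ± 0.26 above it (SE, adjusted p = 0.000155). Itgb8, whose dimer also activates latent TGF-beta, had 9.25, 9.61 and 8.50, or 2.78 ± 0.31 above it (SE, adjusted p = 9.71e-05). Replicate 2 was the highest array for Itgb5, and replicate 4 for Itgb6 and Itgb8. Itgb4, the hemidesmosome chain that pairs with Itga6, had 6.80, 6.59 and 6.82 and missed the threshold narrowly (adjusted p = 0.05005). It passed when the variance was modelled without a trend (adjusted p = 0.0364). Itgb3, the other partner of Itgav and a chain of platelets and endothelium, had 6.03, 5.91 and 5.86 and lay below the level on each array. Itgb7 (mean 6.10), Itgb2l (6.63) and Itgb2 (5.59) did not pass either.

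Of the laminin-binding alpha chains, Itga6 and Itga3 passed and Itga7 did not. Itga6, a laminin receptor of epithelia and endothelium, had 7.90, 8.84 and 7.86, a mean of 1.86 ± 0.28 above the level (SE, adjusted p = 0.000494), and replicate 4 stood above both other arrays. Itga3, the laminin receptor chain of podocytes and tubules, had 7.21, 7.36 and 7.12, or 0.89 ± 0.19 above it (SE, adjusted p = 0.00315). Itga7, best known from muscle, had 6.73, 6.53 and 6.61 (adjusted p = 0.136). The 3 values lay above the level on each array, but by less than the test required.

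Of the 4 collagen receptor chains 2 passed. Itga1, which binds type IV collagen and is known from mesangial and smooth muscle cells, had 8.57, 8.52 and 8.66 in replicates 2, 4 and 5, so that the arrays differed by 0.14 at most. It lay 2.24 ± 0.23 above the level (SE, adjusted p = 6.40e-05). Itga10, known mainly from cartilage, had 6.71, 6.94 and 7.12 and passed by a small height of 0.58 ± 0.16 (SE, adjusted p = 0.0111). Without replicate 4 it did not pass (adjusted p = 0.0775). Itga2, which prefers fibrillar collagen, had 5.61, 5.83 and 6.08, and Itga11, a fibroblast chain, 5.83, 5.57 and 5.68. Both were below the level on all 3 arrays. Itga1 and Itga2 are neighbours in the genome with no other protein-coding gene between them.

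Itgav and Itga8 were the RGD-binding alpha chains that passed. Itgav, the alpha chain shared by the vitronectin and TGF-beta-activating receptors, had 9.67, 10.16 and 9.26, or 3.36 ± 0.28 above the level (SE, adjusted p = 2.28e-05). Itga8, the mesangial and smooth muscle chain whose dimer with Itgb1 is the receptor for nephronectin, had 8.44, 8.03 and 7.88, or 1.78 ± 0.25 above it (SE, adjusted p = 0.000343). Itga5, the classical fibronectin receptor chain, had 6.32, 6.44 and 6.41, at the level (height 0.05, adjusted p = 0.762). Its 3 arrays lay within 0.12 of each other. Itga2b, the platelet chain, had 6.76, 6.73 and 6.43 (adjusted p = 0.154) and passed when replicate 5 was left out (adjusted p = 0.0352). The defining platelet marker Pf4 did not pass, and 1 of 4 measured platelet markers did (Treml1, 6.92 ± 0.40, mean and SD, n = 3). That is 25% of the measured platelet markers, against 37.3% of all genes.

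Itga4 and Itga9, which form a pair of related chains, both passed. Itga4, the chain that binds VCAM1 and fibronectin, had 9.97, 9.38 and 9.84, or 3.39 ± 0.26 above the level (SE, adjusted p = 1.25e-05). Itga9, a receptor chain for tenascin and other matrix ligands of smooth muscle, had 8.87, 9.05 and 8.23, or 2.37 ± 0.28 above it (SE, adjusted p = 0.000141). Both genes were at least 1.73 above the level on every array. Itga4 is also a chain of lymphocytes and monocytes, and the part of such cells in its signal was not tested. Itgal, Itgam, Itgax, Itgad and Itgae had means between 4.43 and 5.90, below the level on each array. Itgam, Itgax and Itgad stand next to each other in the genome, with no other protein-coding gene between them. Together with Itgb2, Itgb2l and Itgb7, 0 of 8 leukocyte chains passed limma's test, against 37.3% of all genes. Of the 8, 1 had an unadjusted p under 0.05, Itgb2l, against 8086 of all 19938 genes. Of 12 measured leukocyte markers 1 passed (8.33%, against 37.3% of all genes). It was Tyrobp (6.73 ± 0.19, mean and SD, n = 3), while Ptprc, the pan-leukocyte marker, did not pass. The log2 of the summed signal of these 12 markers was 9.18, 9.29 and 9.48 in replicates 2, 4 and 5. Their median height was -0.69, so the sum holds mainly signal below the level. The level itself was 6.20, 6.32 and 6.50, so the sum does not compare leukocyte content between arrays.

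Of 24 known integrin dimers, 11 had both chain genes above the level, 7 had 1 and 6 had neither. The 11 were α1β1, α3β1, α4β1, α6β1, α8β1, α9β1, α10β1, αvβ1, αvβ5, αvβ6 and αvβ8. All of them contain Itgb1 or Itgav, so they are not separate observations. Of single integrin chains 12 of 27 passed (44.4%), against 37.3% of all genes. The count moves with the calls: at the 99th percentile level Itga3 and Itga10 did not pass, which removes α3β1 and α10β1. Without a variance trend Itgb4 passed, which adds α6β4. A transcript above background says neither that the chains are in the same cell nor that the dimer is on its surface.

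**Figure D2:**
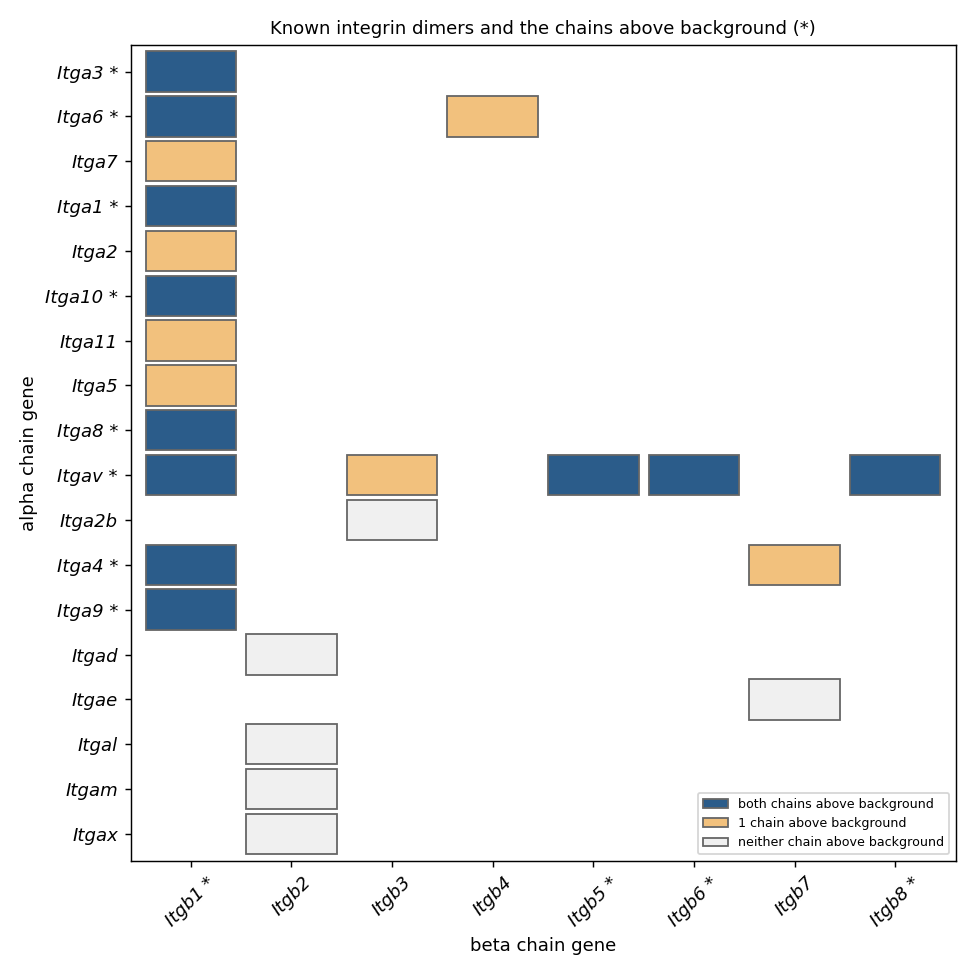
Grid of the 24 known integrin dimers, with beta chain genes on the x axis and alpha chain genes on the y axis; the fill gives how many of the chain genes were above background, and asterisks mark those genes. The column of Itgb1 and the row of Itgav hold all 11 dimers with both chains above background, and the column of Itgb2 holds none.

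Of the genes named after integrins that are not receptor chains, Itgb1bp1, whose product ICAP1 binds the tail of the beta1 chain, passed with 8.75, 8.13 and 8.43 (height 2.10 ± 0.25, SE, adjusted p = 0.000152). Itgb1bp2, which encodes the muscle protein melusin, Itgb3bp, which encodes a centromere protein, and Itgbl1, which encodes a secreted protein, had means of 5.45, 5.78 and 5.33, below the level on each array.

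The laminins that passed were Lama5, Lamb1, Lamb2 and Lamc1. Lama5, the alpha chain of most adult kidney basement membranes, had 7.37, 7.28 and 7.36, or 0.99 ± 0.19 above the level (SE, adjusted p = 0.00168), and its arrays differed by 0.09 at most. Lamb1, a widespread beta chain, had 7.9998, 8.66 and 8.04, or 1.89 ± 0.25 above it (SE, adjusted p = 0.000246). Lamb2, the beta chain of the mature glomerular and arterial basement membrane, had 8.37, 8.25 and 8.45, or 2.01 ± 0.23 above it (SE, adjusted p = 0.000103). Lamc1, the gamma chain of nearly all laminins, had 8.92, 8.67 and 8.03, or 2.20 ± 0.29 above it (SE, adjusted p = 0.000237). Of 8 listed trimers that contain Lamc1, 2 had all their chain genes above the level, laminin 511 and laminin 521. In each of the other 6 the alpha chain gene did not pass. All 8 share beta and gamma chain genes that passed, so this restates which alpha chain genes passed. Lama5 did not pass when the 99th percentile was used as background.

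The other alpha chain genes lay at or near the level. Lama4, the alpha chain of vessel walls and endothelium, had 6.58, 6.25 and 6.23 (height 0.01, adjusted p = 0.959), above the level in replicate 2 alone. Lama2, the muscle and mesangial chain, had 6.43, 6.23 and 6.39 (height 0.01, adjusted p = 0.952). Lama1, which adult mice express in the proximal tubule, had 5.998, 6.59 and 6.20, above the level in replicate 4 alone. Lama3 and Lamb3, chains of the skin laminin, had means of 6.01 and 5.9967, and Lamc3 one of 6.60, and none of these passed. When the 90th percentile was used as background, at which 50% of all genes and 31 of the 48 passed, Lama2, Lama4 and Lamc3 passed too.

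Among the linkers and proteoglycans, Nid1, nidogen 1, which joins laminin to type IV collagen, had 8.11, 7.80 and 7.35, or 1.41 ± 0.25 above the level (SE, adjusted p = 0.00129). Its relative Nid2 had 6.33, 5.98 and 6.03 and did not pass. Hspg2, which encodes perlecan, had 7.41, 7.33 and 7.26, or 0.99 ± 0.19 above it (SE, adjusted p = 0.00200). Agrn, which encodes agrin, the main heparan sulphate proteoglycan of the glomerular basement membrane, had 6.86, 6.84 and 6.68 and passed by 0.45 ± 0.17 (SE, adjusted p = 0.0392). It did not pass without replicate 2 or without replicate 4 (adjusted p = 0.184 and 0.166). Dag1, dystroglycan, a laminin receptor that is not an integrin, had 7.72, 7.74 and 7.62, or 1.35 ± 0.21 above the level (SE, adjusted p = 0.000571).

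The adhesive ligands both passed. Npnt, nephronectin, the RGD-bearing ligand of α8β1 integrin that epithelial cells lay into their basement membrane, had 7.63, 8.27 and 7.31, or 1.39 ± 0.26 above the level (SE, adjusted p = 0.00158). Fn1, fibronectin, had 10.78, 9.66 and 9.35, or 3.59 ± 0.35 above it (SE, adjusted p = 4.68e-05). Replicate 2 was the highest array for Fn1, by 1.28 over the mean of the other arrays, and without that replicate its height was 3.09.

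Sequences upstream of 5 of these genes are given from RefSeq promoter windows of build GRCm38.p6, as the bases 250 to 51 before an annotated start, 5′ to 3′. They are the receptor pair Itga8 and Itgb1 with the ligand Npnt, all above background, and the neighbouring collagen receptor genes Itga1, above background, and Itga2, below it. Capitals mark GC boxes (GGGCGG, or CCGCCC on the other strand).
Itga8 (chr2:12301995-12302194, minus strand): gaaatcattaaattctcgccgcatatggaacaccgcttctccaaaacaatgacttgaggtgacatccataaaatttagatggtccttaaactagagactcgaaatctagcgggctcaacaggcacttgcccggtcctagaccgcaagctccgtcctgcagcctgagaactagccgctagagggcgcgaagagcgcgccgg
Itgb1 (chr8:128685404-128685603, plus strand): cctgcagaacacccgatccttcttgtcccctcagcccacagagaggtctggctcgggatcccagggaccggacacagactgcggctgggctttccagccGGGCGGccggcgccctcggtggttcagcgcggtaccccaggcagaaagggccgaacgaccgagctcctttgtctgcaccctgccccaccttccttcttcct
Npnt (chr3:132950342-132950541, minus strand): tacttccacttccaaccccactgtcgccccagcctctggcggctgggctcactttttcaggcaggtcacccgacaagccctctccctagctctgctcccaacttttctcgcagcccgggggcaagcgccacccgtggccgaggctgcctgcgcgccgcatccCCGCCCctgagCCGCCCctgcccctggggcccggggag
Itga1 (chr13:115102015-115102214, minus strand): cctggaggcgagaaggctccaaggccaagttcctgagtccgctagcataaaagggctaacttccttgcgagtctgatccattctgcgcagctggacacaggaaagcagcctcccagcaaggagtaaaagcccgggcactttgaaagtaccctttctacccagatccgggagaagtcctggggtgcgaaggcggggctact
Itga2 (chr13:114932151-114932350, minus strand): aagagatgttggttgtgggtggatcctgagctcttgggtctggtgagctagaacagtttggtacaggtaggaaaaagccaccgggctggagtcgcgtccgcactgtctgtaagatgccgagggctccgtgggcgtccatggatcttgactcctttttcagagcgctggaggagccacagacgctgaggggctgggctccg
Npnt had 2 GC boxes in this stretch and Itgb1 had 1, and Itga8, Itga1 and Itga2 had 0. Their GC contents were 70.5% (Npnt), 66.5% (Itgb1), 52.0% (Itga8), 57.0% (Itga1) and 58.5% (Itga2). Npnt has another window in the table, and the one further upstream is shown.

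Promoter windows were found for 32 of the 48 genes. A GC box was present in 13 of 25 windows of the genes that passed (52%) and in 1 of 13 windows of those that did not (7.69%), against 24.6% of all 32851 windows of this length. The median GC content was 62.5%, 54.0% and 51.5% in the same order. An E-box (CANNTG) was found in 72%, 69.2% and 59% of them, and the RBPJ core (TGGGAA, either strand), the site bound by the Notch pathway's transcription factor, in 12%, 23.1% and 17.9%. TATAAA and the cAMP response element TGACGTCA were found in 0 windows of the members, against 9.14% and 0.828% of all windows. These matches are descriptions of the letters, without a test, and windows of a gene can overlap. The 25 windows came from 20 genes and the 13 from 12. Windows of all genes that passed, or did not, were not counted apart. The shares are therefore not shown to be particular to the members.

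How far the arrays differed was the second question. Over the 23 genes that passed, the median SD was 0.31 log2 units, and it was 0.27 over all 7437 genes that passed. The arrays spanned more than 1 log2 unit in 3 of the 23, Fn1 (1.44), Itgb5 (1.13) and Itgb8 (1.11), against 13.7% of all genes that passed. After quantile normalization of the arrays 1 remained, Fn1. A span over 0.8 was found in 8 of the 23 (24% of all genes that passed), and a span over 1.5 in 0 (2.74%). Fn1 was also the only member with an array over 1 log2 unit away from the mean of the other arrays, replicate 2, which was true in that direction of 2.54% of all genes that passed. In the other direction, or for the other replicates, 0 members were that far away, against 0.39% of all genes that passed for replicate 2 below, 1.82% and 0.847% for replicate 4 above and below, and 0.323% and 5.14% for replicate 5 above and below. With 1 sample per replicate these differences have no test.

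Replicate 2 was the highest array for 11 of the 23 genes (47.8%, against 43.8% of all genes that passed), replicate 4 for 9 (39.1%, against 35.4%) and replicate 5 for 3 (13%, against 20.8%). Replicate 5 was the lowest array for 14 of the 23 (60.9%, against 52.8%). Its median difference from the other arrays was -0.28 over the 23 genes and -0.19 over all genes that passed. The shares lay near those of all genes that passed, so a split by highest array is not particular to the members. Fn1, Itgb5, Lamc1 and Nid1 were highest in replicate 2, by 0.54 to 1.28 over the mean of the other arrays, with Itga8 (0.48), Itgb1bp1 (0.47), Itga4 (0.36) and Itgb1 (0.25). Itga6, Npnt, Itgb6, Itgb8, Itgav and Lamb1 were highest in replicate 4, by 0.64 to 0.96, and Itga9 by 0.50. Itga1, Lamb2, Itga10, Lama5, Hspg2, Agrn, Dag1 and Itga3 had arrays within 0.41 of each other.

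Cell type markers differed between the same arrays. All 8 endothelial markers that passed were highest in replicate 2, and their median difference from the other arrays was 1.28 there, -0.59 in replicate 4 and -0.69 in replicate 5. The signal in replicate 2 is part of the test they passed, so the 8 were not chosen independently of that array. Pecam1 lay 2.83, 0.55 and 0.29 above the level in replicates 2, 4 and 5, and Cdh5 2.50, 0.77 and 0.09. Kdr, Tie1, Tek, Eng, Erg and Sox17 did not pass. Of these, Tek was highest in replicate 4 and the others in replicate 2. The log2 of the summed signal of all 14 endothelial markers was 12.17, 10.97 and 10.88 in replicates 2, 4 and 5. Of the 8 loop and distal tubule markers 7 were highest in replicate 4 (median difference 0.64 there, -0.02 in replicate 2 and -0.56 in replicate 5), with a log2 summed signal of 13.66, 14.15 and 13.59. Of the 8 collecting duct markers 5 were highest in replicate 4 (median 0.42), with 11.79, 12.20 and 12.19. The 10 proximal tubule markers were at 14.98, 15.00 and 14.65. For the 16 renin cell and mural markers the median differences were 0.19, -0.12 and -0.04, with summed signals of 15.20, 14.91 and 15.05. Of 6 measured podocyte markers 1 passed, Plce1, and Nphs1 and Wt1 did not. The summed signal of the 6 podocyte markers was 9.57, 9.30 and 9.19. Their median height above the level was 0.13, so much of that sum is signal near background. Mesangial markers passed in 5 of 7 cases (71.4%, summed signals 11.86, 11.63 and 11.19). Fibroblast markers passed in 4 of 7 (57.1%, summed signals 10.58, 10.26 and 10.28). Of all genes 37.3% passed, and lists this short leave such shares uncertain. The part of any of these cells in the differences among integrin and laminin genes was not tested.

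**Figure D3:**
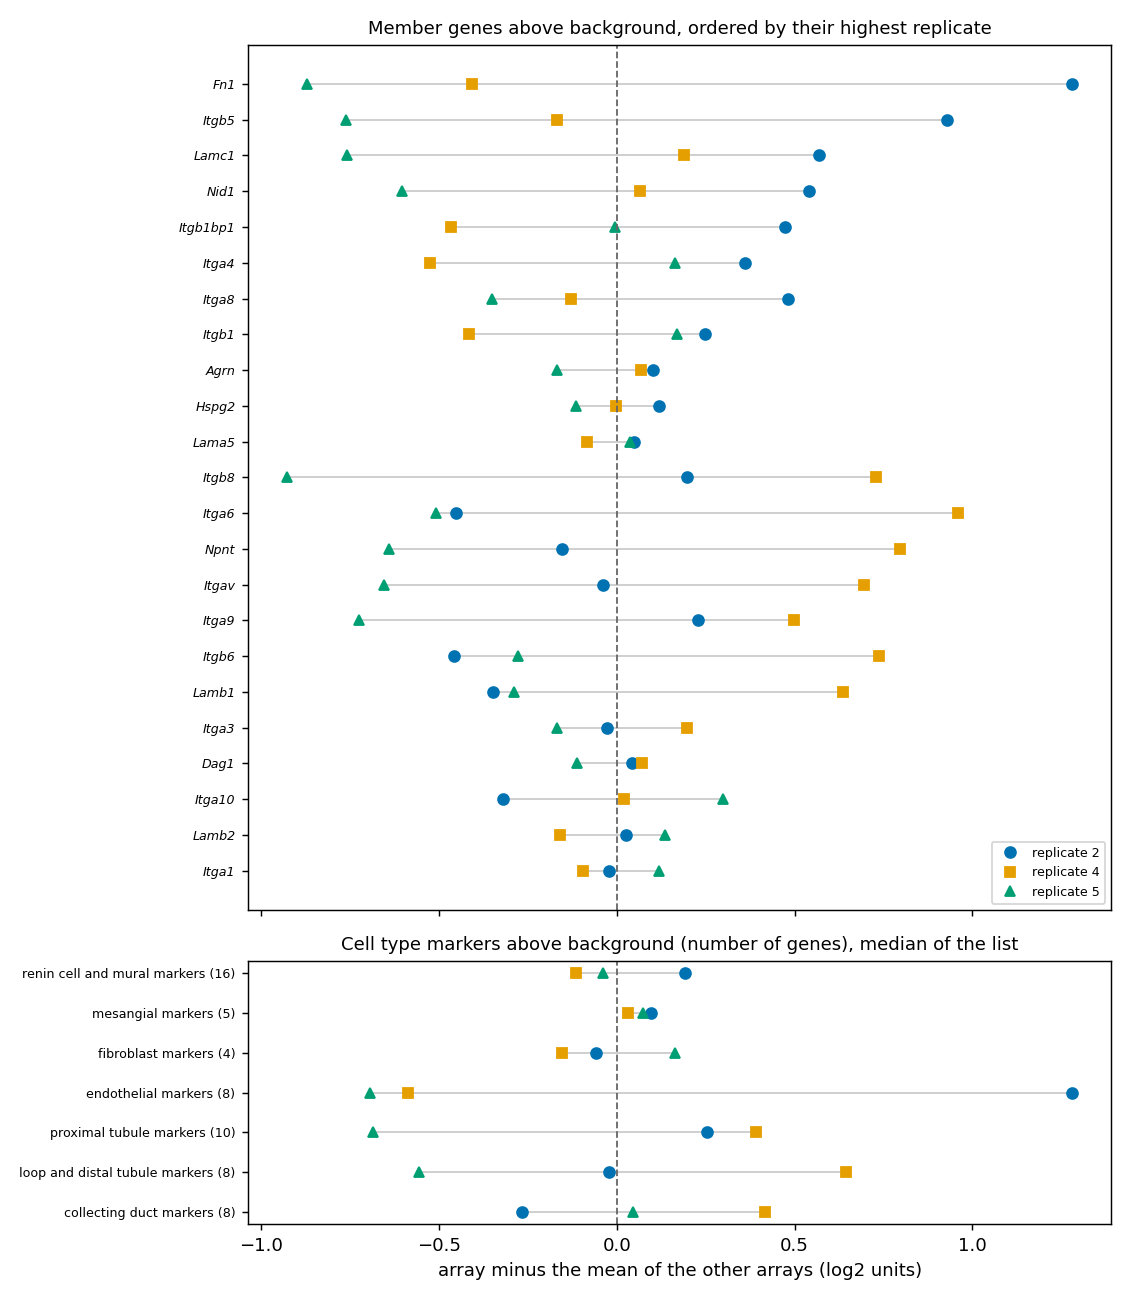
Difference of each array from the mean of the other arrays (x axis, log2 units) for the 23 member genes above background, ordered by their highest replicate (upper panel), and the median of the same difference over each list of markers with at least 4 genes above background (lower panel). Fn1 reaches 1.28 in replicate 2, Itga6 reaches 0.96 in replicate 4, and the endothelial markers have a median of 1.28 in replicate 2.

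Genes that work with integrins and basement membranes were read from 7 further lists, in which 54 of 83 measured genes passed (65.1%, against 37.3% of all genes). The lists were chosen by hand with earlier results of these data known, so the higher share is no independent result. All 9 tetraspanins and membrane partners of integrins passed, among them Cd63 (13.12 ± 0.02, mean and SD, n = 3 here and below), Cd81 (11.94 ± 0.22), Cd47 (11.60 ± 0.28) and Bsg (9.90 ± 0.66), with Cd82 at 7.88 ± 0.13. Of 22 genes listed as integrin adhesion adaptors, the kinase Src among them, 17 passed. Rsu1, a part of the complex around integrin-linked kinase, was at 11.25 ± 0.14, Tns1, tensin, at 11.08 ± 0.10, Flna, filamin, at 10.64 ± 0.26 and Actn4, an actinin, at 10.25 ± 0.11. Fermt3, the kindlin of blood cells, was at 5.80 ± 0.28 and did not pass. Neither did Fermt1, Src, Tln2 and Parvb.

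The dystrophin complex, which ties dystroglycan to actin, passed in 8 of 11 genes, with Sgce at 8.98 ± 0.32, Utrn at 8.68 ± 0.51, Sgcb at 8.35 ± 0.89 and Dmd at 8.12 ± 0.20, and Sgcd (5.56 ± 0.41) below the level. Enzymes that build the laminin-binding sugar of dystroglycan passed in 6 of 8 measured genes, with B3galnt2 at 8.34 ± 0.20, B4gat1 at 7.88 ± 0.39, Rxylt1 at 7.24 ± 0.10 and Pomgnt2 at 7.19 ± 0.14, and Pomk (6.04 ± 0.17) did not. That list held 17 symbols, older names of the same genes among them, and 9 were not used here. Basement membrane collagens passed in 5 of 8, with Col18a1 at 8.11 ± 0.33, Col4a2 at 7.40 ± 0.09, Col4a4 at 7.30 ± 0.16 and Col4a1 at 7.23 ± 0.05, and Col4a6 (6.01 ± 0.23) did not.

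Shares close to that of all genes were found for the remaining lists. Of 14 genes of basement membrane assembly 5 passed (35.7%), Sparc (12.31 ± 0.16), Tinagl1 (9.71 ± 0.47), Tinag (9.07 ± 0.52) and the laminin receptor Bcam (8.43 ± 0.11) with Frem2, while Frem1 (5.49 ± 0.16) did not. Of 11 other integrin ligands 4 passed (36.4%), Mfge8 (8.96 ± 0.28), Thbs1 (8.05 ± 0.42), Edil3 (7.86 ± 0.61) and Vcam1 (7.75 ± 0.63), the last a ligand of Itga4, while Postn (5.33 ± 0.29) did not.

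The count of 23 rested on the level taken as background. When the 99th percentile was taken instead, at which 16.6% of all genes passed, 15 of the 48 passed. Those that no longer passed were Agrn, Dag1, Hspg2, Itga10, Itga3, Lama5, Nid1 and Npnt. At the 90th percentile (50% of all genes) 31 passed. The added genes were Itga2b, Itga5, Itga7, Itgb2l, Itgb4, Lama2, Lama4 and Lamc3, so 1 listed leukocyte chain, Itgb2l, passed there. With a level from vomeronasal receptor genes (66% of all genes) 40 passed, all 10 laminin chains among them. With a level from keratin-associated protein genes (3.56% of all genes) 1 passed, Itgb1. Itgae, Itgal, Itgam, Itgax, Itgb2, Itga11, Itgb1bp2 and Itgbl1 passed under none of the 11 alternatives. Other probe set choices and quantile normalization gave 24 members each, against 37.1% (mean of a gene's probe sets), 36% (dimmest probe set) and 37.7% (quantile) of all genes. The choice of probe set could change the signal of no member but Itgad, the only member with more than 1. The count was 22 without replicate 2, 21 without replicate 4 and 24 without replicate 5, against 30.3%, 32.1% and 39.2% of all genes.

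**Figure D4:**
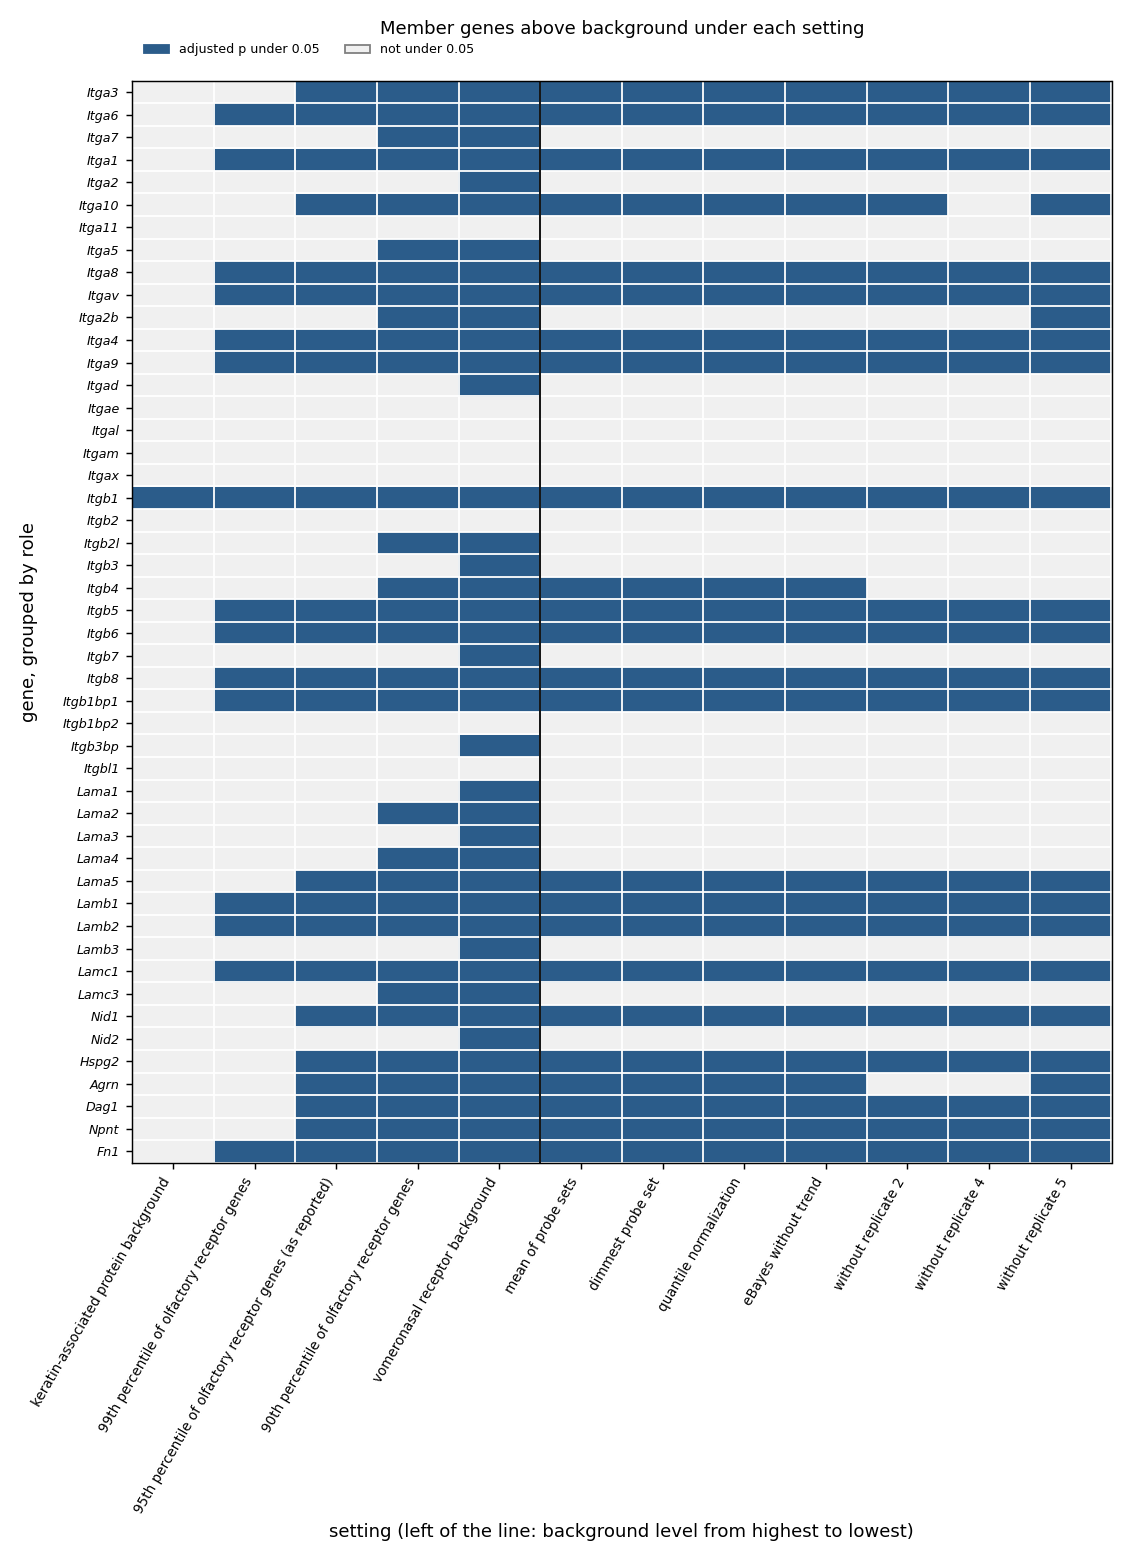
Genes above background (dark) under each setting (x axis) for the 48 genes (y axis, grouped by role); left of the vertical line the level taken as background falls from left to right. The count goes over 1, 15, 23, 31 and 40 genes across those 5 settings, and Itgb1 is dark in every column.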

How the data were processed

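The authors deposited a table of log2 signals, with 1 value for each probe set on each of 3 arrays of sorted cells. Per the submitters' processing notes it was made with Affymetrix Expression Console. How signals were summarised and normalized, and the software version, is not given in the sources used here. Because the values ran over 2.21 to 13.96 they were read as log2, although the log base is unstated; the array medians were 6.09, 6.11 and 6.21. Per the labels' protocols, a NuGEN kit amplified the RNA (1 round) before biotin labelling. Precision is limited by there being 3 arrays.

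Probe sets were named from the platform annotation: 21789 had 1 symbol, 1621 had several and were left out, and 12147 were not listed there. Of the 21789, 21698 matched a RefSeq table of GRCm38.p6 by Entrez identifier and 0 symbols changed. The brightest probe set of a gene was taken. The signal minus the array's background level was fitted over all 19938 genes by limma 3.58.1 under R 4.3.3, with an intercept as the sole term, an eBayes variance trend and a one-sided test. P-values were adjusted by Benjamini-Hochberg across those genes, and simulated arrays were used to check the procedure. Of 169 vomeronasal receptor genes 2 passed, and of 44 keratin-associated protein genes 10. Every member may be named, and of each further list up to 4 genes that passed with the highest mean and the lowest gene, with others that bear on a statement named after their values were seen. Members, lists, dimers, trimers, motifs and printed promoters were chosen with earlier results of these data known. Alternatives were other background levels, other probe set choices, quantile normalization, no trend, other thresholds for array differences and leaving out each replicate. Python 3.11.15, pandas 2.3.3, numpy 2.4.6 and matplotlib 3.10.9 were used.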

Additional observations from a re-analysis of the deposited data

How the results depend on the processing

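The calls depended on the background level. With the 99th percentile of olfactory receptor genes 15 members, 31 of the 83 genes of the further lists and 3303 of all genes passed. With keratin-associated protein genes the counts were 1, 8 and 709, and with vomeronasal receptor genes 40 members and 13165 genes passed. Members that passed at first but had means below the 99th percentile level were Agrn (-0.41), Itga10 (-0.28), and below the keratin-associated protein level Agrn (-1.87), Dag1 (-0.98), Hspg2 (-1.33), Itga1 (-0.0844), Itga10 (-1.74), Itga3 (-1.44), Itga6 (-0.47), Itga8 (-0.55), Itgb1bp1 (-0.23), Itgb5 (-0.32), Itgb6 (-0.16), Lama5 (-1.33), Lamb1 (-0.44), Lamb2 (-0.31), Lamc1 (-0.13), Nid1 (-0.91), Npnt (-0.93). Members below the first level that passed against vomeronasal receptor genes were Itga2 (0.33), Itgad (0.40), Itgb3 (0.43), Itgb3bp (0.27), Itgb7 (0.60), Lama1 (0.76), Lama3 (0.50), Lamb3 (0.49), Nid2 (0.61), heights in log2 units. These changes follow from the levels themselves. With each replicate left out the counts ran from 21 to 24 members, 48 to 54 further genes and 6051 to 7806 of all genes. Genes whose arrays differed by over 1 log2 unit numbered 3, with 1 after quantile normalization, 8 at a threshold of 0.8 and 0 at 1.5. The other alternatives, the mean or dimmest probe set, quantile normalization and no trend, each gave 24 members, all 23 and Itgb4. All members but Itgad had 1 probe set, so the choice of probe set left their own signals unchanged and is no check on them. No paired analysis was possible because the series has 1 group. Signal over background limits the calls near the level, and the spread among background genes is no part of the test.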
